A study of Mus musculus with 3 samples.

Results

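The genes described here are 10 mouse genes of antigen presentation by the major histocompatibility complex (MHC), 6 of class I and 4 of class II, chosen by name and read through every probe whose RefSeq accession belongs to them. All 10 were on the array, with 12 of its 55664 probes, among 21150 genes that could be named. RNA was measured in laser-microdissected acinar cells, duct cells and cells of acinar-to-ductal metaplasia (ADM), the state in which injured acinar cells take on duct-like features. The cells came from frozen pancreas of 3 wild-type mice 48 h after pancreatitis caused by caerulein, a cholecystokinin analogue that overstimulates acinar cells. Each group had 1 array, and the mice per array, their strain and age, and how the cells were recognised under the microscope are not given in the sources used here. There is thus no untreated pancreas, no test and no replicate error for any difference between groups, and precision is limited by the number of arrays.

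MHC class I molecules are found on nearly all nucleated cells. They consist of a heavy chain, such as H2-K1 or H2-D1, and beta-2 microglobulin (B2m), and show peptides cut by the proteasome and pumped into the endoplasmic reticulum by the Tap1 and Tap2 transporter. Interferon-gamma replaces catalytic proteasome subunits by Psmb8, Psmb9 and Psmb10, which gives the immunoproteasome. MHC class II molecules, pairs of an alpha and a beta chain (H2-Aa with H2-Ab1, and an E alpha chain with H2-Eb1), belong mainly to macrophages, dendritic cells and B cells, but epithelial cells can make them under interferon-gamma. The invariant chain Cd74 guards their peptide groove until cathepsins and H2-DM free it. Ciita is the coactivator of class II genes, and its relative Nlrc5 that of class I genes.

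The 75th percentile of the processed signal was 72.2 intensity units for ADM, 95.7 for duct and 35.2 for acinar, so the acinar array was dimmer. Levels below are log2 processed signal minus that percentile, a difference is the first array's level minus the second's in log2 units, and 1 unit is 2-fold. The scanner software marks spots that stand well above their background. A probe on which over 50% of spots carried this mark was taken as detected, and where only 1 of 2 arrays detected it only a lower limit can be given (at least so many fold). A gene detected on neither array was not compared. Acinar markers were lower in duct than in acinar in 11 of 11 genes and in ADM in 10 of 11, and duct markers were higher in duct than in acinar in 9 of 9 compared and in ADM in 5 of 9 with 1 lower. The duct chloride channel Cftr was not detected on any array. Both differences against acinar share the 1 acinar array.

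Of the 10 genes, 8 lie in the MHC on chromosome 17 in the order H2-K1, Psmb9, Tap1, Psmb8, H2-Ab1, H2-Aa, H2-Eb1 and H2-D1. RefSeq promoter windows (build GRCm38.p6, 300 bases around the start site) were matched by symbol for 8 genes. They are shown because class I and class II promoters share a module, of which the X2 box binds CREB-type factors and the Y box binds NF-Y. The lines below give the 200 bases before the start site, 5′ to 3′. Capitals mark the Y box core ATTGG, the X2 box core TGACG, the interferon-stimulated response element (GAAA, any 2 bases, GAAA) and the GAS element TTCNNNGAA, searched on both strands, and overlapping matches run together. The class II alpha chain H2-Aa and beta chain H2-Eb1 come first.
H2-Aa (chr17:34287824-34288023, - strand): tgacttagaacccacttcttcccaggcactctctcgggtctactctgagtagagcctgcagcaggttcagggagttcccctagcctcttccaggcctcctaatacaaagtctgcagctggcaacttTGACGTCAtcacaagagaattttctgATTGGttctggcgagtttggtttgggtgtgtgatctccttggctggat
H2-Eb1 (chr17:34305667-34305866, + strand): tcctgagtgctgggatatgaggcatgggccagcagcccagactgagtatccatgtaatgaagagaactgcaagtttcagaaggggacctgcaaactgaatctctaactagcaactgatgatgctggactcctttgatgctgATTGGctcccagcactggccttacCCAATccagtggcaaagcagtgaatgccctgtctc
The class I heavy chains and B2m follow. For H2-K1 the table held windows of 2 start sites, and the one farther upstream is printed.
H2-K1 (chr17:34000348-34000547, - strand): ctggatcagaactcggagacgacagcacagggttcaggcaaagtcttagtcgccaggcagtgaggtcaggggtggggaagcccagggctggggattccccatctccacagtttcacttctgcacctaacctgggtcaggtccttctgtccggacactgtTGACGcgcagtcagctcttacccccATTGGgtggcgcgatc
H2-D1 (chr17:35262894-35263093, + strand): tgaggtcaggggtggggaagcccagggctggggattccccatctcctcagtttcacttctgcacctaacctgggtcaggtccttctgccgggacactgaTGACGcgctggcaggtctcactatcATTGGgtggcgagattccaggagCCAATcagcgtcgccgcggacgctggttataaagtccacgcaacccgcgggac
B2m (chr2:122147487-122147686, + strand): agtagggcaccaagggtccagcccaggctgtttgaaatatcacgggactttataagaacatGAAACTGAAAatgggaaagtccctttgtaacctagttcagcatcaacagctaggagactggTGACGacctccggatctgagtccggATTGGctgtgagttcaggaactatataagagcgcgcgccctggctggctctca
Psmb9 and Psmb8 follow. The start sites of Psmb9 and Tap1 point away from each other with 225 bases between them, so the windows of these neighbours overlap and share matches, and that of Tap1 is not printed.
Psmb9 (chr17:34187331-34187530, - strand): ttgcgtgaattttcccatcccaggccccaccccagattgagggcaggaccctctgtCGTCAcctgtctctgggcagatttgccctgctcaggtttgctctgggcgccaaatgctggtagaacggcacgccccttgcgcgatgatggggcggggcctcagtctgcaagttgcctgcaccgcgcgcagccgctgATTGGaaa
Psmb8 (chr17:34197995-34198194, + strand): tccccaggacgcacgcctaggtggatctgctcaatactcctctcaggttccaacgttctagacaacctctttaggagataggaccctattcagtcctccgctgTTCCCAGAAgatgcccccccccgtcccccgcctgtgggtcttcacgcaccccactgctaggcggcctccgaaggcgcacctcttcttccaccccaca

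The Y box core was present in 7 of the 8 genes, all but Psmb8, against 37.4% of all 32851 windows of 300 bases. In H2-Aa it began 48 bases before the start site, in H2-Eb1 59 and in B2m 53. The longer form CTGATTGG, searched after the sequences had been seen, was in 6 of 8 genes and 4.10% of all windows, and it was in both class II genes and in 4 of 6 class I genes. Its matches in Psmb9 and Tap1 are the same bases, counted for both genes, as are their Y box and X2 box core matches. In H2-D1 and H2-K1 the longer form lay on the other strand, in H2-K1 at bases 9 to 16 after the printed start site. The X2 box core, also added after the sequences had been seen, was in 6 of 8 genes (20.8% of windows) and not in H2-Eb1 or Psmb8. The exact pattern of the response element matched B2m alone, from -139 to -130 (3.44% of windows). That of the GAS element matched Psmb8 alone, from -97 to -89 (8.30%). Looser forms of either element were not searched, so the other genes are not shown to lack them. The NF-kB pattern (GGG, any 5 bases, CC), present in 50.8% of windows, matched 7 of 8 genes. The heavy chains H2-K1 and H2-D1 both held GGGGATTCCC, the NF-kB site of the class I enhancer A. The windows of H2-Ab1 and Cd74 were not analysed here. The matches describe letters in these windows and were not tested as binding sites.

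**Figure D1:**
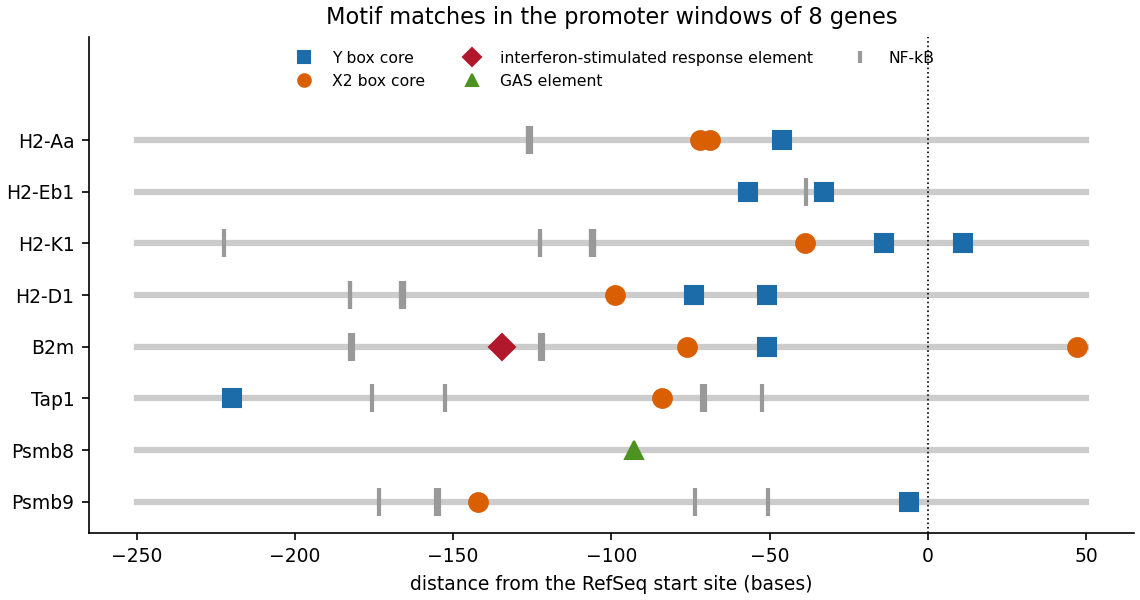
Motif matches in the RefSeq promoter windows of 8 genes, with the distance from the start site in bases on the horizontal axis. Squares are Y box cores, circles X2 box cores, the diamond an interferon-stimulated response element, the triangle a GAS element and grey ticks NF-kB patterns. Y box cores appear in 7 of the 8 windows.

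Class II genes were higher on both the ADM and the duct array than on the acinar array. A difference of 2-fold or more was reached by 4 of the 4 genes in ADM and by 3 in duct, with median differences of 1.98 (3.94-fold) and 1.91 (3.76-fold). By comparison, ADM exceeded acinar by that much in 21.8% of all 13632 genes compared, and duct in 27.4% of 13826, and the median over all genes was 0.00 in both comparisons. None of the 10 genes was lower than in acinar by 2-fold or more, against 22% of all genes for ADM and 24.6% for duct. Among only the genes 2-fold apart between duct and acinar, 52.7% were higher in duct as scaled here. That part was 64.7% with median scaling and 65.6% with normexp background correction. The number higher in duct was 3791 as scaled here, 4724 with median scaling and 2845 with normexp, of 13826 each.

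Cd74, the invariant chain, had a processed signal of 9341 intensity units on the ADM array, 9294 on duct and 527 on acinar. Its levels were 7.01, 6.60 and 3.90, the acinar array being low and the other two close together. That made Cd74 8.64-fold over acinar in ADM and 6.48-fold in duct, with 2.72% of all genes above it in the first comparison and 7.71% in the second. In both comparisons this difference was, as scaled here, the largest among the 9 genes detected on both arrays, Tap1 having only a lower bound. Cd74 lies on chromosome 18, outside the MHC, as does B2m on chromosome 2.

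The peptide-binding chains were less uniform. H2-Aa, the alpha chain of the A molecule, had levels of 4.54 in ADM, 2.91 in duct and 2.11 in acinar. ADM stood apart there, 5.38-fold over acinar and 3.08-fold over duct, whereas duct lay within 2-fold of acinar (0.80). H2-Ab1, its beta chain, had levels of 5.75, 5.81 and 4.22 on the brighter of its probes. ADM and duct were nearly level for this chain (−0.06) and 2.89-fold and 3.01-fold over acinar. The other H2-Ab1 probe gave 4.76, 5.07 and 3.24, and the same order against acinar (1.52 for ADM, 1.83 for duct). H2-Eb1, the beta chain of the E molecule, had levels of 2.88, 3.63 and 1.40. Here duct was the highest array, 4.71-fold over acinar, with ADM at 2.79-fold and duct 1.69-fold over ADM. The difference of H2-Ab1 between ADM and duct lay within the spot error and turned to 0.03 under another choice of probes for the 75th percentile. Each class II value rests on a single spot per array, to which the scanner software gave an error of about 10%.

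**Figure D2:**
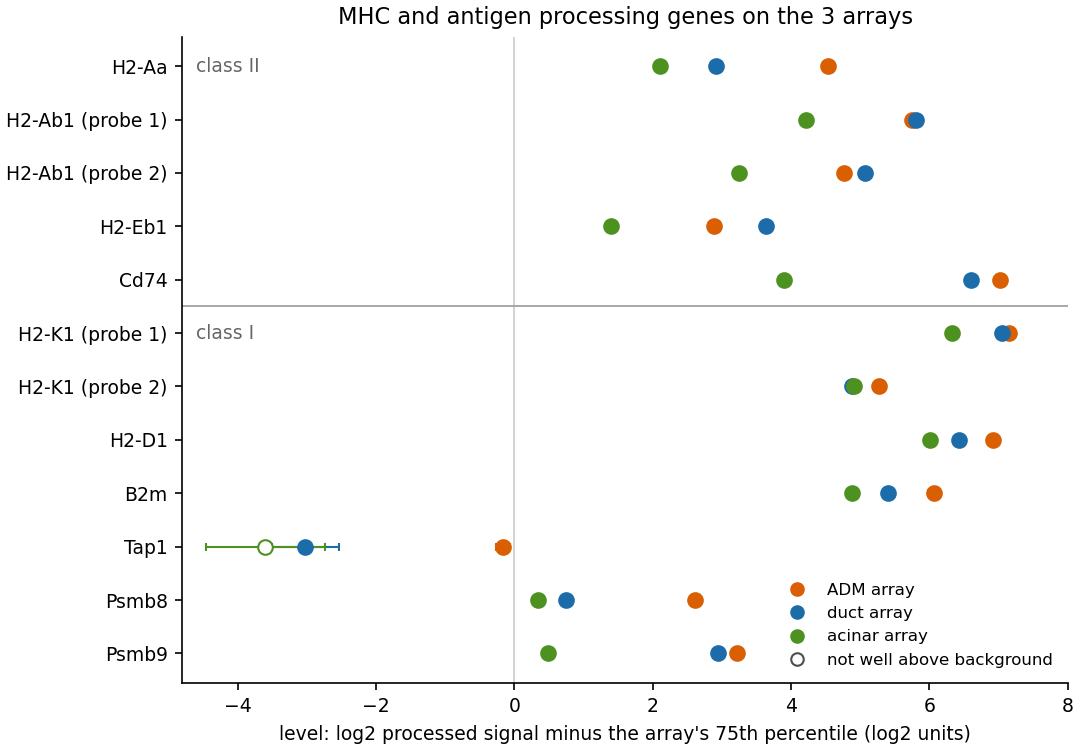
Level of each probe of the 10 genes on the 3 arrays, as log2 processed signal minus the array's 75th percentile. Bars are the SD of repeated spots within an array where a probe had more than 1, and the open circle is not well above background. On its brightest probe each of the 10 genes, of class I and class II alike, sits lowest on the acinar array, and Tap1 was not detected there.

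The class I heavy chains H2-K1 and H2-D1 stayed within 2-fold between the arrays, and B2m passed it in ADM against acinar. H2-K1 had levels of 7.15 in ADM, 7.05 in duct and 6.33 in acinar on its main probe, read from 10, 9 and 10 spots with SDs of 0.055, 0.056 and 0.060 between spots of an array. Those SDs cover spotting and scanning only. ADM and duct were 1.77-fold and 1.64-fold over acinar, inside the 2-fold limit. Its other probe gave 5.27, 4.88 and 4.91, so that duct and acinar were level (−0.03) and ADM was 0.36 higher. H2-D1 had a processed signal of 8761 intensity units in ADM, 8247 in duct and 2261 in acinar. After scaling it too stayed within 2-fold in the 3 comparisons, with 0.92 for ADM and 0.42 for duct against acinar. B2m, the common light chain, had levels of 6.07, 5.40 and 4.88, from 2 spots on each array with SDs of 0.090, 0.027 and 0.031. It was 2.28-fold over acinar in ADM and 1.43-fold in duct.

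Among the interferon-inducible processing genes of class I, differences from acinar were larger in ADM, and in duct only that of Psmb9 passed 2-fold. Psmb9, an immunoproteasome subunit, had levels of 3.22 in ADM, 2.94 in duct and 0.48 in acinar. Like the class II genes it was higher on both other arrays than on acinar, 6.69-fold in ADM and 5.48-fold in duct. Psmb8, another subunit of the immunoproteasome, had levels of 2.60, 0.75 and 0.33. It was 4.82-fold over acinar in ADM and 1.33-fold in duct. Tap1, a subunit of the peptide transporter, had levels of −0.16, −3.02 and −3.60. All 10 of its spots were well above background in ADM, 6 of 10 in duct and 1 of 10 in acinar, with spot SDs of 0.477 in duct and 0.861 in acinar. ADM was at least 3.70-fold over acinar and 7.27-fold over duct, and the difference between duct and acinar could not be sized. Psmb9 and Tap1, which share the stretch between their start sites, had different patterns: duct was close to ADM for Psmb9 and below it for Tap1. With normexp the Tap1 difference between ADM and duct was 1.04, against 2.86 as scaled here.

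Over the 6 class I genes, ADM exceeded acinar by 2-fold or more in 4 (median 1.54, 2.90-fold) and duct in 1 (median 0.47, 1.39-fold), against 21.8% and 27.4% of all genes. With 6 genes, the duct count of 1 was too small to be set apart from the share over all genes, and Tap1 entered it as a bound. The list counts given further on are read against the same shares. For H2-K1, H2-D1 and B2m the median was 0.92 in ADM and 0.52 in duct. For Psmb8, Psmb9 and Tap1 it was 2.27 in ADM and 0.42 in duct. The class II median minus the class I median was 1.44 for duct against acinar and 0.44 for ADM against acinar. The values of the classes overlapped in both comparisons. Class I ran from 0.00 (Tap1, a bound) to 2.46 in duct and from 0.82 to 2.74 in ADM, and class II from 0.80 to 2.70 in duct and from 1.48 to 3.11 in ADM. The counts of class I moved with the scaling: H2-K1 and H2-D1 passed 2-fold between ADM and acinar with median scaling (1.05 and 1.15), quantile normalization (1.20 and 1.26) and normexp (1.31 and 1.40). In duct against acinar, the class I count of 1 became 2 with median scaling, 3 with quantile normalization and 4 with normexp. Of all 13826 genes, 4724, 3946 and 2845 were 2-fold higher in duct under these settings, against 3791 as scaled here.

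**Figure D3:**
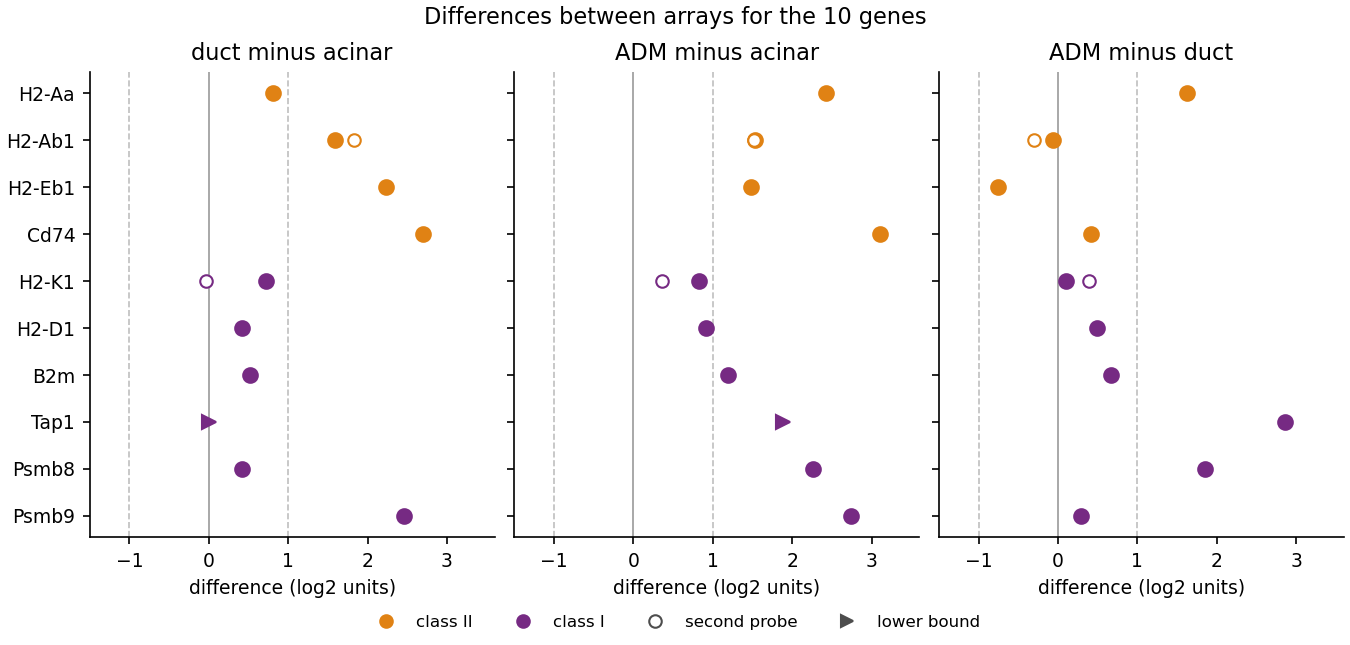
Differences between arrays in log2 units for the 10 genes, class II in orange and class I in purple. Open circles are second probes, triangles lower bounds, and dashed lines mark 2-fold. Cd74 lies farthest to the right in both comparisons with acinar, and H2-K1 and H2-D1 lie within the dashed lines.

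Between ADM and duct most of the 10 genes were within 2-fold. ADM exceeded duct for 3 of them, Tap1, Psmb8 and H2-Aa, against 21.6% of all 14475 genes compared, and duct exceeded ADM by 2-fold for 0, against 24.8% of all genes. The remaining 7 lay between −0.76 (H2-Eb1) and 0.67 (B2m). Median differences were 0.18 for class II and 0.58 for class I, and the class II median minus the class I median was −0.40. The class II median turned to −0.12 with quantile normalization, and H2-K1 from 0.11 to −0.28.

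Other genes of the class II pathway did not all go with the 4 class II genes. Of 15 on the list, 6 of the 12 compared exceeded acinar by 2-fold or more in ADM and 0 were lower (median 1.30), while in duct 2 of 11 were higher and 2 lower (median 0.00). H2-DMb1, a chain of the peptide exchange factor, had levels of 2.53 in ADM, 2.22 in duct and −2.13 in acinar, and was at least 23.9-fold over acinar in ADM and at least 19.2-fold in duct. Its partner chain H2-DMa had levels of 2.53, −0.71 and −1.81, so that ADM was 20.2-fold over acinar and duct 2.15-fold. H2-Oa and H2-Ob, chains of the factor that restrains H2-DM, were highest in ADM, at least 5.56-fold and 9.27-fold over acinar, and H2-Oa was not detected on duct. The cysteine proteases Ctss, which trims the invariant chain, and Lgmn were 6.68-fold and 4.07-fold over acinar in ADM but within 2-fold in duct (0.56 and −0.19). For both proteases ADM was the only array that stood high, whereas Cd74 was high on duct as well.

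The coactivators had different orders after scaling. Ciita had levels of 1.57 in ADM, 1.31 in duct and 2.36 in acinar, so that acinar was the highest, with differences of −0.79 and −1.05. Its processed signal before scaling was 215, 238 and 181 intensity units, lowest in acinar, so this order rested on the scaling. Nlrc5 had levels of 0.68, 1.70 and −2.41, at least 6.61-fold over acinar in ADM and at least 13.4-fold in duct. Rfxap and Rfxank, subunits of the factor that holds Ciita at class II promoters, were not detected on any array. Rfx5, a further subunit, was detected on duct only, with a level of −1.92.

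Other genes of the class I pathway exceeded acinar by 2-fold or more in 4 of 9 genes in ADM with 1 lower (median 0.76), and in 4 of 10 in duct with 2 lower (median 0.87). Tap2, the other subunit of the transporter, had levels of 2.55 in ADM, 3.59 in duct and −0.60 in acinar. It was 8.91-fold higher in ADM and 18.3-fold in duct, unlike Tap1, which was low on the duct array. Tapbpl, a relative of the peptide editor tapasin, followed the Tap1 order, with 1.96, −1.06 and −1.84, whereas tapasin itself (Tapbp) was 2.80-fold higher in duct and 1.69-fold in ADM. Psmb10, the third immunoproteasome subunit, went against Psmb8 and Psmb9, with 3.89, 3.79 and 6.55. Both other arrays were below acinar, with differences of −2.66 in ADM and −2.77 in duct, on 1 probe.

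The standard proteasome, 14 subunits measured alongside, had a median of 0.25 for ADM and −0.30 for duct against acinar, with 2 higher and 1 lower in ADM and 0 higher and 4 lower in duct. Other class I and class I-like heavy chains were higher in 5 of 13 genes in ADM (1 lower, median 0.91) and 5 of 15 in duct (0 lower, median 0.74). H2-M3, which shows formylated peptides, was 6.18-fold and 4.64-fold over acinar in ADM and duct. Fcgrt, the antibody-carrying Fc receptor of class I fold, was at least 7.32-fold over acinar in duct. Genes of this family are close copies, and their probes can bind more than 1 member: the probe named for H2-K2 gave 7.18, 7.08 and 6.41, near those of the main H2-K1 probe. MHC genes also differ between mouse strains, and the match of the probes to these mice was not tested.

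Interferon receptors, kinases and factors were higher than in acinar in 9 of 16 compared genes on both arrays, with 2 lower in ADM and 1 in duct (medians 1.17 and 1.21). The receptor chain Ifngr1 had levels of 2.59 in ADM, 4.05 in duct and 1.11 in acinar, and the kinase Jak2 0.27, 1.69 and −1.24. Duct was the highest array for both, 7.70-fold and 7.61-fold over acinar. Irf1, a factor that acts on class I and immunoproteasome promoters, was 2.24-fold higher in duct than in ADM. The cytokine gene Ifng was not detected on any array. Of the interferon-gamma targets outside antigen presentation, 4 of 11 were higher in ADM with 1 lower (median 0.63), and 6 of 13 in duct with 1 lower (median 0.56). Among costimulatory and checkpoint ligands of T cells, 3 of 5 were higher in ADM and 3 of 6 in duct with 1 lower. Cd40 was not detected on any array. Cd86 was detected on duct only.

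Macrophage and general leukocyte markers were higher alongside these genes in ADM, while in duct most were not, and dendritic and B cell markers were mostly within 2-fold or not compared on either array. Of the macrophage and monocyte markers, ADM exceeded acinar by 2-fold in 11 of 13 and was lower in 0 (median 2.21), and of the general leukocyte markers in 7 of 8 (median 2.45). Duct exceeded acinar in 2 of 13 macrophage markers, with 6 the other way (median −0.73), and in 1 of 8 leukocyte markers, with 3 the other way (median −0.88). The summed signal of the 14 macrophage markers, in multiples of each array's 75th percentile, was 365 in ADM, 73.8 in duct and 101 in acinar, and that of the 8 leukocyte markers 104, 20.7 and 32.7. On the same scale the 4 class II genes summed to 214, 173 and 40.6. The class II sum was 4.27-fold higher on duct than on acinar, while the macrophage and leukocyte sums, as scaled here, were lower on duct than on acinar. With normexp, the median difference of duct from acinar was −0.14 for macrophage markers and −0.59 for leukocyte markers. Median scaling gave −0.35 and −0.50. Without the brightest gene of each list, a check added after the sums were seen, class II (without Cd74) summed to 84.4, 76.0 and 25.6 and macrophage markers (without Tyrobp) to 229, 56.3 and 72.2. Leukocyte markers without Lcp1 summed to 56.8, 14.7 and 13.9, so that their sum was no longer lower on duct. Cd52, among the brightest of those left, was 1.94-fold over acinar in duct, while the median over the 8 genes was −0.88. Cd163 was not detected on any array, and the immune adaptor Tyrobp, among the brightest markers, had levels of 7.08, 4.13 and 4.86. Before scaling, the processed signal of Tyrobp was 9792, 1674 and 1024 intensity units. It was lowest in acinar, so the order of duct and acinar for Tyrobp rested on the scaling.

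Dendritic cell markers summed to 1.96 in ADM, 1.86 in duct and 4.42 in acinar, of 8 genes with Ccr7 not detected on any array. The higher acinar sum rested on Flt3, detected on acinar alone, without which the sums were 1.91, 1.84 and 1.40. B cell markers summed to 5.93, 5.90 and 5.28, and the B cell genes Ms4a1, Fcrla and Blk were not detected on any array. Median differences for ADM and duct against acinar were 0.00 and −0.40 for dendritic cell markers and 0.29 and 0.03 for B cell markers. T cell markers summed to 7.79, 4.38 and 7.78. Fibroblast markers were higher in 7 of 8 genes in both ADM and duct (sums 312, 308 and 78.3 for ADM, duct and acinar). Endothelial markers, with Tek not detected, were higher than in acinar in 3 of 5 in ADM (median 1.40) and in 3 of 4 in duct (median 2.67), with 1 lower on each. Their sums of 12.0, 14.5 and 14.2 became 3.29, 8.66 and 0.726 without Kdr, so endothelial markers other than Kdr were, like class II, higher in sum on ADM and duct. In dissected tissue, fewer cells of a type and less RNA per cell cannot be told apart. The part of any of these cells in the MHC signal was not tested.

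**Figure D4:**
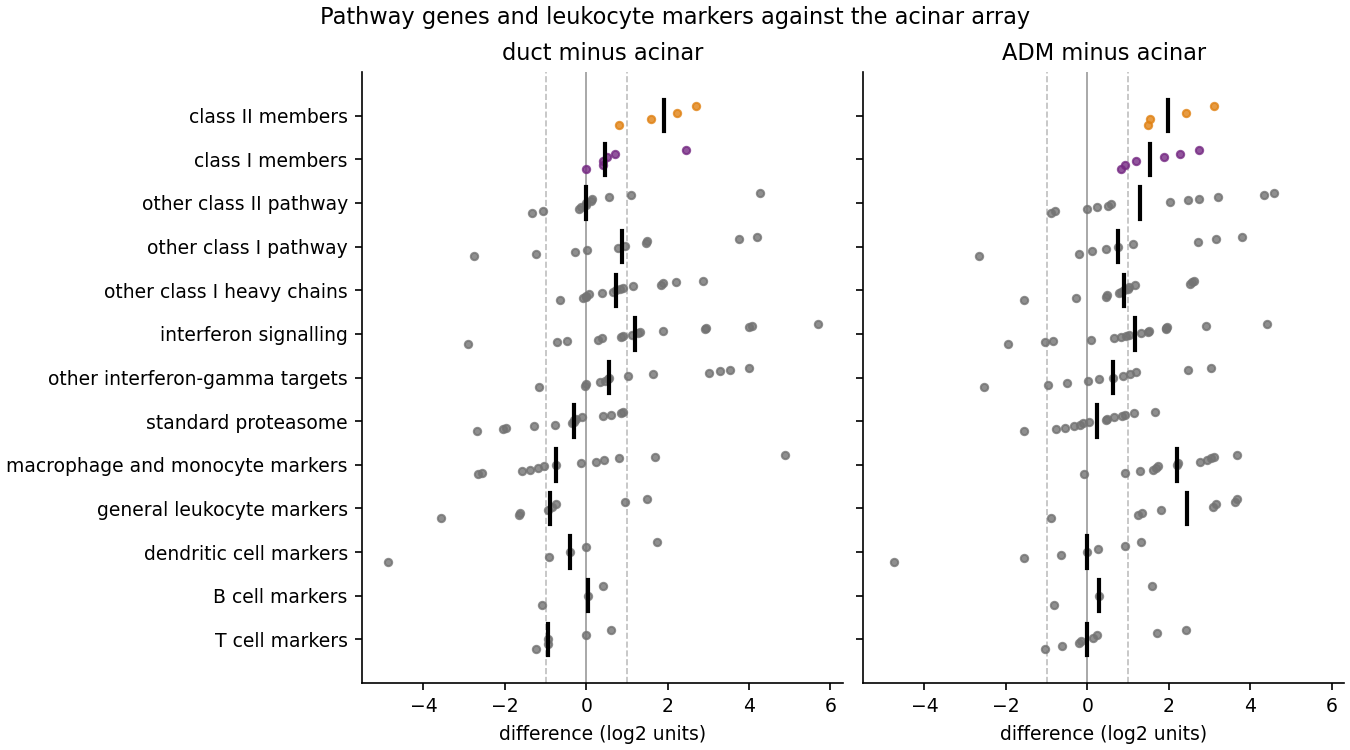
Differences against the acinar array in log2 units for the 10 genes, related pathway lists and leukocyte markers. Each point is a gene, bounds included at their bound, black bars are medians and dashed lines mark 2-fold. Macrophage and leukocyte medians lie at 2.21 and 2.45 in ADM and at −0.73 and −0.88 in duct, while the class II medians are 1.98 and 1.91.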

How the data were processed

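The data are 3 Agilent 1-colour mouse arrays, 1 per group, of Cy3-labelled cDNA amplified from microdissected RNA, per the labels' protocols. Spot brightness was deposited as linear intensity in scanner tables. Background and the spatial trend had been removed within each array by Agilent Feature Extraction 11.5.1.1, per the file headers, and arrays had not been scaled to each other. Median intensities and spot flags were also taken from the deposited tables. A deposited value table holds log2 values of 32939 probes. Its offset from log2 of the processed signal was 1 constant per array (−6.17, −6.58 and −5.13 for ADM, duct and acinar) to within 0.001 in at least 32934 probes, with column medians of −0.56, −0.63 and −0.57, so genes were not centred and the sign was kept. No source used here says how its probes were chosen.

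Control spots and outlier spots (117, 110 and 115 per array) were left out, no spot was saturated, repeat spots were averaged on the log2 scale, and the 75th percentile over 55664 probes was subtracted. Probes numbering 27676, 27849 and 22654 were detected. RefSeq accessions named 28020 probes through a GRCm38.p6 table, used for names since the arrays were annotated on mm9, and 27644 stayed unnamed. The probe with the highest mean stood for a gene. For a bound, the undetected side took its own level or the lowest detected level of its array, whichever was higher (−3.15, −3.28 and −2.04), and bounds of the wrong sign were set to 0. Symbols, lists (190 entries in 18 lists, 185 on the array) and members were chosen with earlier results of these data known. Named genes were all members with every probe, genes of the pathway and interferon lists at least 2-fold apart in any comparison, the brightest markers, and list genes not detected anywhere, and the text names part of these; some list genes are not reported here. Others named are related or within 2-fold and were chosen after their values were seen. The steps were tested on simulated data. Python 3.11.15, pandas 2.3.3, R 4.3.3 and limma 3.58.1 (normexp, offset 50) were used, and 9 alternatives were run.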

Additional observations from a re-analysis of the deposited data

How the results depend on the processing

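The 9 alternatives changed the scaling, the background correction, the source of values, the probe or the filter. Of 243 values of single genes, 227 stayed on the same side of 2-fold, 16 did not and 5 changed sign, all 5 among differences within 2-fold. Class II medians moved by less than 1.5-fold in all alternatives, from 1.83 to 2.30 for duct and 1.52 to 2.27 for ADM against acinar. The class I median of duct against acinar was 1.1 with normexp. With second probes, which only H2-K1 and H2-Ab1 had, the class I median of ADM against acinar was 0.36 and the class II median minus the class I median 1.16. That contrast ranged from 1.08 to 1.86 for duct against acinar and from 0.25 to 1.16 for ADM. Tap1 in ADM against acinar fell from a bound of 1.89 to 0.56 with normexp and was 3.44 with no bound. Median scaling moved the median of all genes by 0.28 for duct against acinar, and duct then held 64.7% of genes at least 2-fold apart, against 52.7%, and 65.6% with normexp. ADM held 64.5% with normexp against 49.7%, and 33.3% with no filter, where duct held 34.9%.

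Counts of all genes at least 2-fold higher in the first array and in the second moved as follows. Second probes and the filters changed how many genes were tested, and for normexp the cause was not tested. Second probes gave 788 and 950 for duct against acinar, 730 and 785 for ADM against acinar, and 1014 and 843 for ADM against duct. Normexp gave 1494 higher in acinar than in duct, 1681 and 927 for ADM against acinar, and 1472 and 2147 for ADM against duct. Probes detected on all 3 arrays gave 2298 higher in duct than in acinar, 1688 higher in ADM than in acinar, and 1717 and 2055 for ADM against duct. With no filter, 8829 were higher in acinar than in duct and 7969 higher in acinar than in ADM. No paired analysis was possible because each group has 1 array. Signal over background limited Tap1, H2-DMb1, H2-Oa, H2-Ob and Nlrc5 to bounds.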
